A study of Mus musculus with 121 samples.

Results

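The genes described here are the 27 genes of the series that make cholesterol or control its synthesis through the transcription factor SREBP2. They were chosen by gene name and known role, and the rule uses no measured value. All 27 were found in both count tables, each of which holds 25759 rows, 25723 of them with a gene symbol. By role they are 6 control genes (Srebf2, Scap, Insig1, Insig2, Mbtps1 and Mbtps2), 3 genes of the steps that supply the mevalonate pathway (Acat2, Aacs and Hmgcs1), 7 genes from mevalonate to squalene (Mvk, Pmvk, Mvd, Idi1, Fdps, Ggps1 and Fdft1), 10 genes from squalene to cholesterol (Sqle, Lss, Cyp51, Tm7sf2, Msmo1, Nsdhl, Hsd17b7, Ebp, Sc5d and Dhcr7) and the sterol carrier gene Stard4.

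The study sequenced mRNA from liver and gonadal white fat of C57BL/6 mice. Their genotypes at the gene that the labels call PEP were wild type (WT below), heterozygous (HET) and knockout (KO). Pepd encodes prolidase, the peptidase that cuts dipeptides with proline or hydroxyproline at the end, and its counts are given below as a check of the labels. On chow, in which lipid gave 10% of the calories, there were livers of 5 WT, 8 HET and 5 KO mice and fat of 4 WT, 8 HET and 5 KO mice. On a 45% high-fat diet (HFD) there were 8 WT, 11 HET and 9 KO mice in each tissue. Liver was also sampled on a Control diet (5 WT, 4 HET and 1 KO mice) and on an Alios diet (6 WT, 5 HET and 8 KO mice). Feeding began at 8 weeks of age and lasted 18 weeks, and all mice shared the C57BL/6 strain. No label gives the make-up of the Control and Alios diets, the sex of the mice or how the PEP allele was made. The 120 libraries came from 76 mice, 44 of which gave both tissues. Mice on the Control and Alios diets carry another run of mouse numbers than mice on chow and HFD, so run and diet cannot be told apart between those pairs of diets. Within chow and HFD the mouse numbers form a lower and a higher run, and each group holds mice of both.

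Cholesterol is built in cells from acetyl-CoA by way of mevalonate, farnesyl groups, squalene and lanosterol. SREBP2 is made as a membrane protein that SCAP escorts out of the endoplasmic reticulum when sterol is scarce, and the proteases encoded by Mbtps1 and Mbtps2 then release the part that switches on the synthesis genes. The INSIG proteins hold SCAP back when sterol is plentiful, and Insig1 is itself a target of SREBP2, whereas Insig2 in liver is known to respond to fasting and insulin. Liver is the main organ that makes cholesterol for lipoproteins and bile acids, while fat cells make little and store much.

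Pepd was checked first. In liver it lay at 31.3 to 64.1 CPM (counts divided by library size, scaled with TMM factors within a tissue) in the WT libraries, at 15.4 to 36.0 CPM in all but 1 of the HET libraries and at 0 to 3.09 CPM in the KO libraries. The library labelled HFD HET replicate 8 had 1.26 CPM, within the KO range. HET HFD against chow in liver is given without this mouse below. Every other diet and genotype count of called members that uses the mouse, in either tissue, came to the same number without it, and the tissue comparison was not refitted without it. In fat Pepd lay at 59.1 to 115 CPM in WT, 21.8 to 74.0 CPM in HET and 6.71 to 35.8 CPM in KO libraries, so that KO and HET fat overlapped through the lowest HET library, which is the same mouse. Liver libraries held 1027087 to 8854246 counts (median 3191160) apart from 1 Alios KO library of 42692, and fat libraries held 4236655 to 6699887. Summed hepatocyte markers (9 genes) reached 77200 to 158000 CPM in liver, and summed adipocyte markers (8 genes) reached 8260 to 55800 CPM in fat. Among the fat libraries, 3 held 15900 to 19800 CPM of epididymis markers (chow WT 2, HET 2 and KO 1) and 1 held 54400 CPM of hepatocyte markers (HFD WT 6). Muscle markers exceeded 1000 CPM in 3 HET livers. Nothing in the labels says how the samples of a group were raised, so p-values measure the spread between the mice sampled.

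Promoter sequences are shown because SREBP2 acts at promoters. They are those of the 4 genes with a RefSeq entry whose diet or genotype tests below had the smallest adjusted p-values (Lss, Aacs, Insig1 and Hmgcs1), and of Insig2, added after its values were seen because it moved against the other genes in liver. Each runs from 250 bases before to 50 bases after the start of transcription (RefSeq, GRCm38.p6), and is written on the strand of the gene. Capitals mark the sterol regulatory element searched as TCACNCCAC and the CCAAT box bound by the partner factor NF-Y, which reads ATTGG on the other strand. Both strands were searched, and the pair of motifs does not overlap in these windows. The Lss window is chr10:76531355-76531654 (plus strand).
Lss: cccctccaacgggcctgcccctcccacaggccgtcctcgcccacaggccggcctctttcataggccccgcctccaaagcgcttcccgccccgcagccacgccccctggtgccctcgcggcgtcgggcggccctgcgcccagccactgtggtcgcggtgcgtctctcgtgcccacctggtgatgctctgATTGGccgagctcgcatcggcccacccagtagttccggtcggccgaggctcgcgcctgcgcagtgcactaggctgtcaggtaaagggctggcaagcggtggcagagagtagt
The Aacs window is chr5:125475623-125475922 (plus strand) and holds neither motif.
Aacs: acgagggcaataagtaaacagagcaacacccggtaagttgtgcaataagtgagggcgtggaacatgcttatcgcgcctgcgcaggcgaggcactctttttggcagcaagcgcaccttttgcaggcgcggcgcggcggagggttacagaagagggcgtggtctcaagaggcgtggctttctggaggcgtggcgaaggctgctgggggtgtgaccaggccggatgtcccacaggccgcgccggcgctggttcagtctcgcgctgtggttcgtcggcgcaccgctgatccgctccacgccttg
The Insig1 window is chr5:28071162-28071461 (plus strand).
Insig1: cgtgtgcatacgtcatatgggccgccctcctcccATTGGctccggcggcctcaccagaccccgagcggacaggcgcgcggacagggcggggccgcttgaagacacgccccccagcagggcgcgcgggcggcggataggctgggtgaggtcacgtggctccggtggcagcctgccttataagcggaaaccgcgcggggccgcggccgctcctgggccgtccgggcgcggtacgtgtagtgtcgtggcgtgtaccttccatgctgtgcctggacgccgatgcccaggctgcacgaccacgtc
The Hmgcs1 window is chr13:119690101-119690400 (plus strand), with 1 match to the sterol regulatory element and 4 CCAAT boxes.
Hmgcs1: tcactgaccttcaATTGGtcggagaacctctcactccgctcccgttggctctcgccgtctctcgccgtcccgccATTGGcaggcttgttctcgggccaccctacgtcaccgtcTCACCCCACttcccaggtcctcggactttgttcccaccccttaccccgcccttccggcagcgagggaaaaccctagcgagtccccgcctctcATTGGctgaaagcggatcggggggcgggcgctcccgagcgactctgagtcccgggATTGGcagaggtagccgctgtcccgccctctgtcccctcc
The Insig2 window is chr1:121332540-121332839 (minus strand), the first of 3 promoters listed for this gene, with 3 CCAAT boxes.
Insig2: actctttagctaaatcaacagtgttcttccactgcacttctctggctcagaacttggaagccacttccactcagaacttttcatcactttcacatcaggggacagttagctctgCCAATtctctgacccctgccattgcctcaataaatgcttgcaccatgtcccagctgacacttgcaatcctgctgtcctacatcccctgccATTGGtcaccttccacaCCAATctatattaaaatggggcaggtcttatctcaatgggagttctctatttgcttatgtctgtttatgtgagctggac
Of the 27 genes, 23 had an entry, and Fdps, Fdft1, Sqle and Stard4 had none. TCACNCCAC was found in 1 of the 23 genes (Hmgcs1) and in 408 of all 32851 promoters (1.24%). CCAAT was found in 18 of the 23 genes, and in 41.1% of all 27025 genes with an entry. Counted by promoter it was in 18 of 29 promoters of these genes (62.1%) and in 37.4% of all promoters. A match describes these letters in this window and is not a site or a cause.

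Levels between genes were compared per kilobase of exon. In liver Sc5d, the lathosterol desaturase, had the highest level at 193 ± 53.4 CPM per kb (SD, n = 75). It was followed at about the same level by the sterol isomerase gene Ebp (97.4 ± 23.5), the HMG-CoA synthase gene Hmgcs1 (95.6 ± 47.3), Insig2 (94.7 ± 41.4) and Insig1 (93.4 ± 32.3), which did not differ beyond their spread. In fat the order began with Hmgcs1 (67.4 ± 23.5 CPM per kb, n = 45), Insig1 (60.5 ± 24.4), the phosphomevalonate kinase gene Pmvk (46.7 ± 14.4) and Aacs (40.1 ± 21.3), the gene of acetoacetyl-CoA synthetase, each within the spread of its neighbour. Srebf2 itself lay at 7.46 ± 1.63 CPM per kb in liver and 13.9 ± 2.39 in fat. The site-2 protease gene Mbtps2 lay at 0.989 ± 0.243 in liver and 1.5 ± 0.340 in fat. These levels were scaled within each tissue, so liver and fat values are not on the same scale. With both tissues of the same 44 mice scaled jointly, Srebf2 averaged 70.9 CPM in liver and 74.4 CPM in fat. Mbtps2 then averaged 12.6 CPM in liver and 11.3 CPM in fat.

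Some members had few or no counts. Mvd, the gene of mevalonate diphosphate decarboxylase, was at 0 in all 120 libraries. Counting error alone allows at most 0.0112 CPM of reads assigned to it over either tissue. Whether the zeros reflect the RNA or the assignment of reads to genes was not tested. They are therefore not read as absence of the RNA. Idi1, the isopentenyl diphosphate isomerase gene, summed to 557 counts over the 75 livers and 120 counts over the 45 fat libraries. Fdps, the farnesyl diphosphate synthase gene, summed to 2208 and 259 counts. The tests therefore covered 26 of the 27 genes in liver (all but Mvd) and 25 in fat (all but Mvd and Idi1). Counts of several genes are uncertain because their exons share 50-base stretches with other annotated genes: 39.1% for Acat2 (Acat3 and Tcp1), 28.9% for Mbtps2, 26.5% for Fdft1, 26.2% for Fdps and 25.3% for Idi1.

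**Figure D1:**
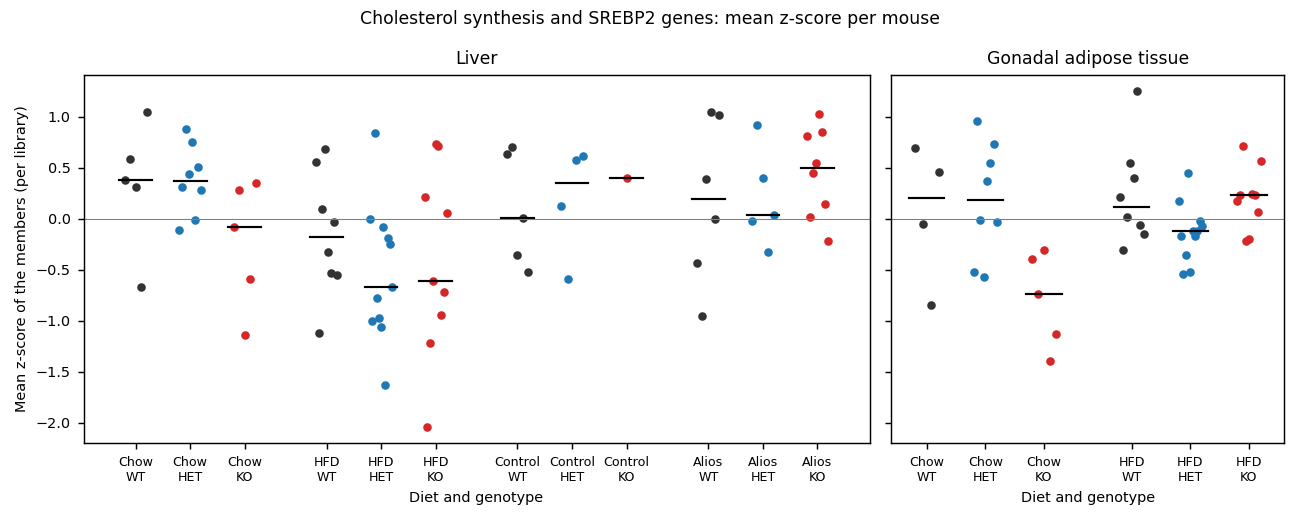
Mean z-score of the tested members in each library (points, no unit), by diet and genotype, for liver and gonadal adipose tissue, with the group median as a bar. Livers on HFD reach the lowest scores, and in fat the 5 KO libraries on chow lie from -1.4 to -0.304.

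The z-score, a mean over members of each gene's standardised log2 CPM, is used here as a description. In liver its group medians were 0.379 in WT, 0.374 in HET and -0.078 in KO mice fed chow, and -0.18, -0.669 and -0.614 in the same order of genotypes fed HFD. Spread within a group was wide: livers of HFD KO mice ran from -2.04 to 0.729. In fat the chow KO libraries ran from -1.4 to -0.304 (median -0.741), against -0.846 to 0.695 in chow WT and -0.222 to 0.712 in HFD KO mice. In the bulk tissue a fall in a gene can come from fewer cells of a type or from less RNA per cell, which cannot be told apart.

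Liver and fat of the same mice were compared in the 44 mice with both tissues. Most members were higher in liver: 21 of 25 tested genes were called higher and 3 lower at an adjusted p under 0.05 (edgeR's quasi-likelihood test with the mouse as a block, Benjamini-Hochberg adjustment). Of all 12699 genes tested, 91.9% were called, 42.5% higher and 49.5% lower in liver, so that a call alone says little here. The median difference of the members was 1.75 on the log2 scale, against -0.11 for all genes. Differences are therefore also given relative to that all-gene median, since with plain library totals in place of TMM factors it became -0.97.

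Stard4 and Fdps had the largest differences, which lay within an SE of each other. Fdps, a gene of few and partly shared counts, differed by 3.62 (SE 0.224). Stard4 averaged 188 ± 64.7 CPM in liver and 14.5 ± 3.98 CPM in fat (SD, n = 44 mice) and was higher in liver in 44 of 44 mice, with a log2 difference of 3.65 (SE 0.107, 3.75 relative to the median of all genes). Tm7sf2, a sterol C14 reductase gene, averaged 149 ± 62.6 and 12.7 ± 7.10 CPM (log2 difference 3.53, SE 0.125). Sc5d averaged 1122 ± 305 and 138 ± 48.9 CPM (3.07, SE 0.0972), and Msmo1, the sterol C4 methyl oxidase gene, 281 ± 153 and 30.5 ± 6.99 CPM (3.01, SE 0.157). These 4 genes were higher in liver in every one of the 44 mice. Insig2 differed more between tissues (2.74, SE 0.129) than Insig1 (1.41, SE 0.115).

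The exceptions were Mvk, Ggps1 and Mbtps1, which were called lower in liver, and Srebf2, which was not called. The other control genes, Scap (log2 difference 1.36, SE 0.0625), Insig1, Insig2 and Mbtps2, were called higher in liver. Mvk, the mevalonate kinase gene, was lower in liver (20.5 ± 10.6 against 31.7 ± 8.15 CPM, log2 difference -0.70, SE 0.116, lower in 38 of 44 mice), and so was Ggps1, the geranylgeranyl diphosphate synthase gene (-0.42, SE 0.0405, lower in 41 of 44 mice). Mbtps1 differed by less (-0.10, SE 0.026, lower in 32 of 44 mice). Relative to the median of all genes Mvk differed by -0.59, Ggps1 by -0.31 and Mbtps1 by 0.01. Srebf2 had 70.9 ± 16.7 CPM in liver and 74.4 ± 12.9 CPM in fat and was not called (log2 difference -0.08, SE 0.0542, edgeR adjusted p = 0.16). This depended on the scaling, since Srebf2 was called lower in liver with RLE factors (-0.14, adjusted p = 0.012), by DESeq2 (-0.13, adjusted p = 0.011) and with library totals (-0.94, adjusted p = 2.4e-21). With library totals Aacs (0.43), Pmvk (0.27) and Mbtps2 (0.17) turned to -0.43, -0.59 and -0.69. The differences of Hmgcs1 (1.01) and Nsdhl (0.90) then shrank to 0.15 and 0.04 and were not called.

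**Figure D2:**
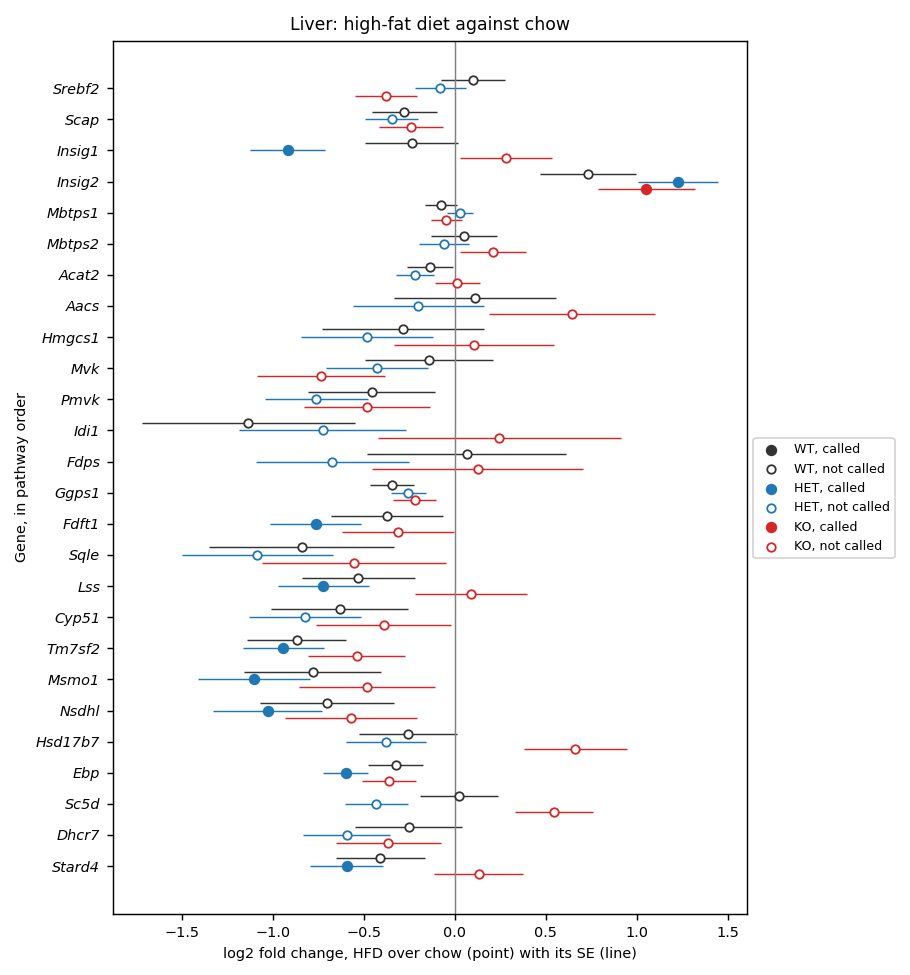
Log2 fold change of HFD over chow in liver for each tested member in pathway order, for WT, HET and KO mice; points are estimates, lines their SE, and filled points had an adjusted p under 0.05. In HET mice most genes lie left of zero and Insig2 lies to the right.

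HFD was set against chow within each genotype in liver. In HET mice Insig2 rose and 8 genes fell, most of them enzymes between squalene and cholesterol. Of the 26 members tested, 1 was called higher and 8 lower in HFD HET livers (n = 11) than in chow HET livers (n = 8), against 14.2% of all 11064 genes called, 6.97% higher and 7.26% lower. Of the 26, 24 had a negative log2 difference and 17 an unadjusted p under 0.05, and the median difference was -0.59 against -0.01 for all genes. Members vary together within groups in liver (median correlation of pairs 0.568), so these counts are not 26 separate observations. Within the 10 genes from squalene to cholesterol, 5 fell and none rose.

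Insig2 was the member that rose. It had 86.3 to 194 CPM (median 154) in chow HET livers and 212 to 536 CPM (median 339) in HFD HET livers. The groups did not overlap: each of the 11 HFD livers was above each of the 8 chow livers. The log2 difference was 1.23 (SE 0.219, a 2.34-fold rise, edgeR adjusted p = 0.00015).

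Insig1 moved the other way in the same livers. It had 251 to 602 CPM (median 420) on chow and 123 to 360 CPM (median 219) on HFD. The ranges overlapped through chow HET replicate 1, at 251 CPM, yet all 11 HFD livers lay below the chow mean. The log2 difference was -0.92 (SE 0.205, adjusted p = 0.002). The ratio of Insig1 to Insig2 per kb, on the log2 scale, averaged 1.70 ± 0.449 in chow HET and -0.464 ± 0.627 in HFD HET livers. It averaged 0.535 ± 0.599 and -0.35 ± 0.75 in chow and HFD WT livers, and 0.596 ± 0.809 and -0.438 ± 0.941 in chow and HFD KO livers, so that of these 6 groups chow HET livers had the highest mean ratio.

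Among the enzymes Ebp fell most clearly. It had 227 to 322 CPM (median 287) on chow and 140 to 238 CPM (median 180) on HFD, with 9 of 11 HFD livers below every chow liver (log2 difference -0.60, SE 0.124, adjusted p = 0.00086). Tm7sf2 had 111 to 187 CPM (median 140) on chow and 43.3 to 175 CPM (median 63.7) on HFD. Of the HFD livers 10 were below every chow liver, and 1 lay inside the chow range (-0.94, SE 0.222, adjusted p = 0.0031). Msmo1 went from 212 to 422 CPM (median 360) to 54.1 to 372 CPM (median 121), a log2 difference of -1.10 (SE 0.308, adjusted p = 0.012). Nsdhl, the sterol 4-alpha-carboxylate dehydrogenase gene, went from 80.3 to 174 CPM (median 147) to 21.4 to 150 CPM (median 52.7), a difference of -1.03 (SE 0.3, adjusted p = 0.017). For both genes 9 of 11 HFD livers lay below every chow liver while 1 HFD liver was above the chow mean.

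Falls with larger adjusted p-values were called for 3 further genes. Fdft1, the squalene synthase gene, fell from a median of 153 CPM (95.2 to 160) to 72.7 CPM (34.0 to 170), with a log2 difference of -0.76 (SE 0.25, adjusted p = 0.033). Lss, the lanosterol synthase gene, went from 118 CPM (78.0 to 148) to 54.4 CPM (35.9 to 159), a difference of -0.72 (SE 0.25, adjusted p = 0.045). Stard4 went from 189 CPM (126 to 262) to 108 CPM (74.2 to 198), a difference of -0.59 (SE 0.199, adjusted p = 0.038). The ranges of these 3 genes overlapped between the diets. Sqle, the squalene epoxidase gene, had as large a difference (-1.09, SE 0.415) but a wide range on HFD, 10.6 to 123 CPM, and was not called (adjusted p = 0.071).

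The control genes other than the INSIG pair did not pass the test in HET livers. Srebf2 had 45.8 to 61.7 CPM (median 53.0) on chow and 32.1 to 77.1 CPM (median 46.8) on HFD, with a log2 difference of -0.08 (SE 0.141). Mbtps1, the site-1 protease gene, differed by 0.03 (SE 0.0705). Scap differed by -0.35 (SE 0.145, adjusted p = 0.10). Without the mouse labelled HET whose Pepd was at the KO level, 1 gene rose and 6 fell, and Fdft1 (-0.69), Lss (-0.66) and Stard4 (-0.54) were no longer called. Without the 3 HET livers with over 1000 CPM of muscle markers, 1 rose and 5 fell, with Insig1 at -1.07, Insig2 at 1.22 and Ebp at -0.65.

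**Figure D3:**
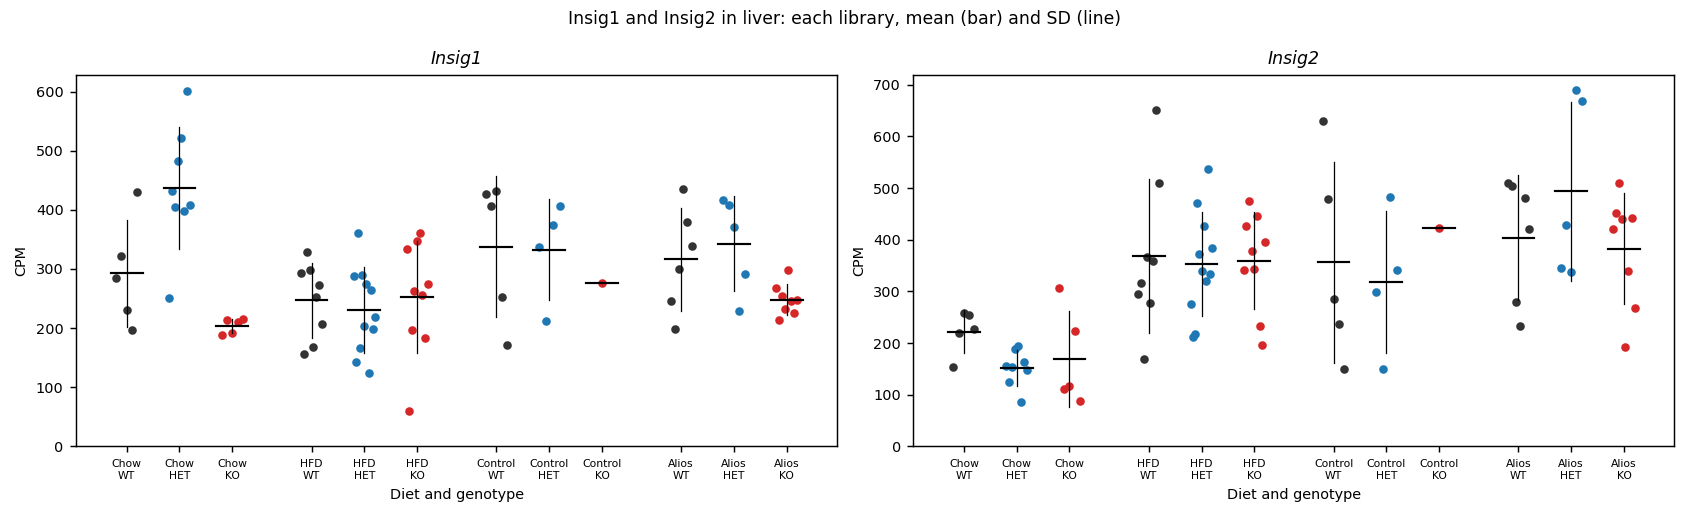
Insig1 and Insig2 in every liver library by diet and genotype, in CPM on axes that start at 0; points are libraries, bars group means and lines SD. The 8 chow HET livers hold 86.3 to 194 CPM of Insig2 and the 11 HFD HET livers 212 to 536 CPM.

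In KO livers Insig2 was the 1 member called for HFD against chow, and it rose. It had 307, 112, 116, 224 and 88.2 CPM in the 5 chow KO livers and 196 to 474 CPM (median 378) in the 9 HFD KO livers. Of the HFD livers 7 were above every chow liver, and the log2 difference was 1.05 (SE 0.265, edgeR adjusted p = 0.0088). The share of all genes called was 10.7%, with 4.51% higher. Among the members 7 had an unadjusted p under 0.05, and 14 of 26 differences were negative. Acute-phase RNA (9 genes) summed to 80000, 39500 and 67000 CPM in chow KO replicates 2, 3 and 5, against 8440 and 9650 CPM in the other KO livers and 6620 to 18200 CPM in chow WT livers. A limit of 50000 CPM, set after seeing the data, marked the mice of replicates 2 and 5, called the acute-phase mice below. They were also the only chow KO mice of the higher run of mouse numbers in either tissue. Run and acute-phase RNA therefore cannot be told apart by leaving them out. Without these 2 mice the difference of Insig2 was 0.73 and was not called (adjusted p = 0.25), nor was it without replicate 5 alone. Without replicate 3 alone it was 0.96 (adjusted p = 0.043).

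In WT livers no member was called for HFD against chow, at a background of 1.87% of all genes. By the unadjusted p 5 members were under 0.05, and DESeq2 called 0. Insig2 had 153, 219, 258, 254 and 227 CPM in chow WT livers and 169 to 651 CPM (median 337) in HFD WT livers, with 7 of 8 above every chow liver. Its log2 difference was 0.73 (SE 0.265, adjusted p = 0.14). Tm7sf2 had 159, 186, 164, 141 and 187 CPM on chow and 49.5 to 150 CPM (median 76.3) on HFD, with 7 of 8 HFD livers below every chow liver (-0.87, SE 0.271, adjusted p = 0.076). Of the 26 members 20 had negative differences, with a median of -0.28.

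Whether the effect of HFD differed between KO and HET livers was tested directly, in a comparison added after the first results. Insig1 (log2 difference of the effects 1.2, SE 0.33, adjusted p = 0.037) and Sc5d (0.98, SE 0.275, adjusted p = 0.041) were called higher in KO than in HET mice, 2 of 26 members against 2.8% of all genes (0.822% in that direction). Insig1 had 189, 213, 192, 210 and 215 CPM in chow KO livers, all below the lowest chow HET liver, and 59.2 to 360 CPM (median 263) in HFD KO livers. Sc5d had 734, 602, 476, 567 and 563 CPM in chow KO livers and 263 to 1264 CPM (median 903) in HFD KO livers, against 734 to 1189 CPM (median 1030) and 528 to 976 CPM (median 796) in HET mice. Neither gene was called without the 2 acute-phase mice (adjusted p = 0.33 and 0.35), although the differences stayed at 1.27 and 0.99. Without chow KO replicate 3 alone neither was called (Insig1 1.2, adjusted p = 0.075, and Sc5d 0.93, adjusted p = 0.091), nor without replicate 2 or 5 alone. The difference of the KO effect, KO against WT, between HFD and chow was called for 0 members (0.145% of all genes, 1 member with an unadjusted p under 0.05, DESeq2 0).

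In liver no member passed the test for KO or HET against WT on any diet where these were compared, and KO against HET on the same diet was not tested. KO against WT on chow gave 0 called members by edgeR at a background of 3.4%, with 3 with an unadjusted p under 0.05, and 23 of 26 differences were negative (median -0.32). DESeq2 called 1. Hsd17b7, a 3-keto-sterol reductase gene, came nearest, with 94.1, 122, 78.3, 39.5 and 126 CPM in WT and 42.5, 51.2, 26.6, 46.0 and 68.8 CPM in KO livers. The groups overlapped through WT replicate 4, and the log2 difference was -0.95 (SE 0.314, adjusted p = 0.074). Sc5d differed by -0.55 (SE 0.237) and Stard4 by -0.65 (SE 0.277), neither of them called. In these KO livers macrophage markers also summed higher (502 to 2220 CPM, against 362 to 731 CPM in WT), and their part in these values was not tested.

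On HFD, KO against WT gave 0 called members in liver (background 1.72%), 0 with an unadjusted p under 0.05 and 0 in DESeq2. HET against WT gave 0 on chow (background 0%, 2 with an unadjusted p under 0.05) and 0 on HFD (background 0.00904%, 1 with an unadjusted p under 0.05), and 0 by DESeq2 on both diets.

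On the Alios diet KO against WT gave 0 called members (background 0.224%, 2 with an unadjusted p under 0.05, DESeq2 0). Scap, the escort protein gene, differed by 0.49 (SE 0.181) and Tm7sf2 by 0.54 (SE 0.258), both short of the threshold. HET against WT gave 0 on the Alios diet and 0 on the Control diet (background 0.00862% each), with no unadjusted p under 0.05 (0 members) and 0 calls by DESeq2. Alios against Control gave 0 in WT livers (background 0%) and 0 in HET livers (background 0.19%), again 0 with an unadjusted p under 0.05 and 0 in DESeq2. The single Control KO library had 277 CPM of Insig1 and 422 CPM of Insig2 and entered no contrast.

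Between the Control or Alios diet and chow or HFD the values are given with diet and run of mouse numbers not separable. Alios against HFD in KO livers gave 0 called members by edgeR (background 0.907%) and 1 by DESeq2. Of 26 differences 24 were positive, 17 had an unadjusted p under 0.05 and the median was 0.50, against -0.01 for all genes. Since members vary together in liver, these are not 26 separate observations. Pmvk came nearest at 1.04 (SE 0.291, adjusted p = 0.056), followed by Sqle, which had 89.7 to 207 CPM (median 145) on Alios and 7.05 to 130 CPM (median 27) on HFD (1.22, SE 0.416, adjusted p = 0.14). In WT livers Alios against HFD gave 0 (background 7.31%, 5 with an unadjusted p under 0.05, DESeq2 0), and Control against chow gave 0 (background 1.72%, 2 with an unadjusted p under 0.05, DESeq2 0).

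In fat on chow, KO mice had less RNA of 6 members than WT mice. Sc5d, Insig1, Lss, Mvk, Pmvk and Dhcr7 were called lower and none higher among the 25 tested (edgeR quasi-likelihood, Benjamini-Hochberg), against 15% of all 14536 genes called and 6.14% lower. Of the 25 differences 23 were negative, with a median of -0.41 against -0.03 for all genes. Sc5d had 130, 158, 122 and 237 CPM in the 4 WT libraries and 68.4, 103, 151, 35.0 and 32.8 CPM in the 5 KO libraries. KO replicate 3 overlapped the WT values, the other 4 lay below them, and the log2 difference was -1.05 (SE 0.312, adjusted p = 0.02).

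Insig1 had 102, 186, 82.9 and 252 CPM in WT and 58.9, 93.2, 127, 43.0 and 47.9 CPM in KO fat, with overlapping groups (-1.07, SE 0.331, adjusted p = 0.025). Lss had 47.8, 58.2, 33.6 and 82.6 CPM in WT and 31.7, 37.2, 46.9, 21.4 and 21.9 CPM in KO fat (-0.80, SE 0.253, adjusted p = 0.028). Dhcr7, the last reductase of the pathway, had 22, 56.3, 21.0 and 64.0 CPM in WT and 13.9, 29.2, 27.3, 19.7 and 23.8 CPM in KO fat (-0.84, SE 0.295, adjusted p = 0.047). Mvk differed by -0.70 (SE 0.225, adjusted p = 0.032) and Pmvk by -0.71 (SE 0.247, adjusted p = 0.047). In none of the 6 genes were the groups apart, and for Sc5d, Insig1, Lss and Pmvk the lowest values of all were those of KO replicates 4 and 5.

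KO replicates 4 and 5 were the fat of the same 2 mice whose livers had the high acute-phase RNA. In these libraries adipocyte markers summed to 8260 and 15500 CPM, against 24700 to 42200 CPM in chow WT fat. Fibroblast markers (7 genes) summed to 14000 and 20400 CPM against 2260 to 5000 CPM, lymphocyte markers (8 genes) to 16900 and 7360 CPM against 1720 to 2850 CPM, and macrophage markers (10 genes) to 6590 and 14400 CPM against 1250 to 5440 CPM. KO replicate 1, which held 15900 CPM of epididymis markers, also had few adipocyte markers (13100 CPM). No marker gene of the adipocyte, fibroblast, lymphocyte or macrophage lists was at 0 throughout a group. Without the mice of replicates 4 and 5, 0 members were called, with Sc5d at -0.59 (adjusted p = 0.46) and Insig1 at -0.74 (adjusted p = 0.45). The count was also 0 without KO replicate 4, without KO replicate 5, without WT replicate 5 or in a fit of the compared groups alone, and it was 4 (Sc5d, Insig1, Dhcr7 and Lss) without the 4 fat libraries with epididymis or liver RNA.

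Against HET fat on chow, in a comparison added after the first results that shares the KO libraries, 10 members were called lower in KO and none higher (background 32.4%, with 14.4% lower). They were Sc5d (-1.35, SE 0.279, adjusted p = 0.00039), Insig1 (-1.29), Lss (-0.95), Dhcr7 (-0.92), Pmvk (-0.91), Nsdhl (-0.90), Hmgcs1 (-0.83), Mvk (-0.82), Insig2 (-0.72) and Hsd17b7 (-0.71). Sc5d had 138 to 261 CPM (median 200) in the 8 HET libraries, and 4 of the 5 KO libraries lay below all of them. Without the 2 acute-phase mice 0 of these were called. HET against WT on chow gave 0 called members in fat (background 0%), 0 with an unadjusted p under 0.05 and 0 in DESeq2.

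**Figure D4:**
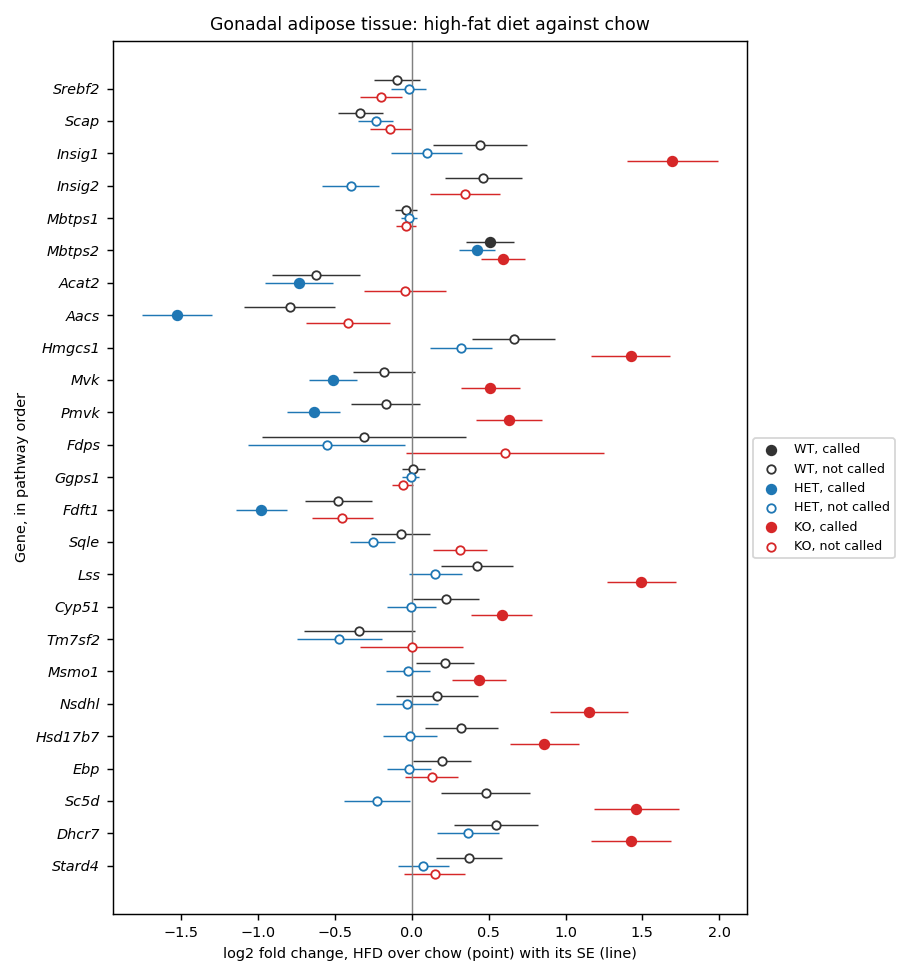
Log2 fold change of HFD over chow in gonadal adipose tissue for each tested member in pathway order, for WT, HET and KO mice; points are estimates, lines their SE, and filled points had an adjusted p under 0.05. KO mice have 12 filled points, all right of zero, and HET mice have 5 left of zero.

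Every member called in KO fat rose on HFD, while 5 of the 6 called in HET fat fell. Mvk and Pmvk were called in both genotypes in opposite directions, and Mbtps2 rose in both. In KO fat 12 of 25 members rose on HFD and none fell, at a background of 35.5% of all genes called and 15% called higher. Lss had 31.7, 37.2, 46.9, 21.4 and 21.9 CPM on chow and 66.6 to 109 CPM (median 91.5) in the 9 HFD libraries. The groups did not overlap, and Lss rose 2.81-fold (log2 difference 1.49, SE 0.224, edgeR adjusted p = 4.8e-06).

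Insig1 went from 58.9, 93.2, 127, 43.0 and 47.9 CPM to 118 to 324 CPM (median 260), with 8 of 9 HFD libraries above every chow library (1.70, SE 0.297, adjusted p = 3.6e-05). Hmgcs1 went from 137, 118, 306, 81.2 and 101 CPM to 224 to 511 CPM (median 417), with 7 of 9 above every chow library (1.42, SE 0.256, adjusted p = 4.9e-05). Dhcr7 went from 13.9, 29.2, 27.3, 19.7 and 23.8 CPM to 41.5 to 82.1 CPM (median 61.9) with no overlap (1.43, SE 0.26, adjusted p = 6e-05). Chow KO replicate 3 was the highest chow library for Insig1 and Hmgcs1, and these groups touched through it. Sc5d rose by 1.46 (SE 0.276, adjusted p = 9.6e-05) to 127 to 325 CPM (median 215), and Nsdhl by 1.15 (SE 0.253, adjusted p = 0.00054) to 77.9 to 152 CPM (median 98.7).

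Further calls in KO fat were Hsd17b7 (0.86, SE 0.222), Pmvk (0.63), Mbtps2 (0.59), the lanosterol demethylase gene Cyp51 (0.58), Mvk (0.51) and Msmo1 (0.44). Hsd17b7 had 9.89, 8.43, 11.1, 10.3 and 8.64 CPM on chow and 13.9 to 22.4 CPM (median 16.8) on HFD, without overlap. Msmo1 had 34.0, 34.2, 32.7, 38.0 and 29.8 CPM on chow and 39.4 to 51.9 CPM on HFD, also without overlap despite its small difference. Srebf2 had 114, 80.3, 84.4, 150 and 141 CPM on chow and 63.3 to 121 CPM (median 101) on HFD and was not called (-0.20, SE 0.136). Without the 2 acute-phase mice 9 members were called higher, with Dhcr7 at 1.39, Insig1 at 1.37, Lss at 1.22, Hmgcs1 at 1.09 and Sc5d at 1.00, and Mvk, Pmvk and Msmo1 were not called. In that fit Aacs (-0.82) and Fdft1 (-0.76) were called lower. Mvk and Pmvk were also not called without the fat libraries with epididymis or liver RNA. In KO fat adipocyte markers summed to 8260 to 48800 CPM (median 15500) on chow and 17000 to 40100 CPM (median 24300) on HFD. Medians of macrophage markers (4930 and 6640 CPM) and fibroblast markers (4270 and 8320 CPM) were higher on HFD too. The part of these cells in the rises was not tested.

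In HET fat 1 member rose and 5 fell on HFD, against 34.4% of all genes called, 15.6% higher and 18.8% lower, so that the count of falls is near the background. Aacs had 194 to 387 CPM (median 245) in the 8 chow libraries and 65.0 to 146 CPM (median 83.7) in the 11 HFD libraries. The groups did not overlap, and the log2 difference was -1.53 (SE 0.229, adjusted p = 1.3e-05). Fdft1 had 33.6 to 88.9 CPM (median 51.6) on chow and 23.6 to 40.7 CPM (median 25.3) on HFD, with 9 of 11 below every chow library (-0.98, SE 0.167, adjusted p = 4.3e-05). Pmvk (-0.64, SE 0.17), Mvk (-0.51, SE 0.155) and Acat2 (-0.73, SE 0.222), the cytosolic thiolase gene, also fell. In the same libraries adipocyte markers summed to 21100 to 55800 CPM (median 37100) on chow and 16000 to 37300 CPM (median 22700) on HFD, while the sums of macrophage markers (medians 2130 and 5480 CPM) and fibroblast markers (medians 4440 and 6690 CPM) were higher on HFD. Their part in these falls was not tested.

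Insig1, Lss and Sc5d, which rose in KO fat, had log2 differences of 0.10 (SE 0.229), 0.15 (SE 0.175) and -0.22 (SE 0.215) in HET fat. Insig1 had 101 to 315 CPM (median 174) in chow HET and 115 to 319 CPM (median 187) in HFD HET fat. Sc5d had 138 to 261 CPM (median 200) and 115 to 231 CPM (median 170), and Lss 32.7 to 85.9 CPM (median 62.1) and 41.6 to 116 CPM (median 64.0). In all 3 genes the diets overlapped almost throughout in HET mice.

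In WT fat Mbtps2 was the 1 member called, against 4.57% of all genes and 1.6% in that direction. It had 12.2, 11.6, 10.1 and 13.1 CPM on chow and 12.3 to 21.9 CPM (median 16.4) on HFD (0.51, SE 0.156, adjusted p 0.05 after rounding). Mbtps2 also rose in HET fat (0.42, SE 0.117, adjusted p = 0.0051) and KO fat (0.59, SE 0.142, adjusted p = 0.0014), and each genotype has chow mice of its own. Hmgcs1 in WT fat had 221, 290, 122 and 301 CPM on chow and 314 to 502 CPM (median 348) on HFD, with no overlap, but was not called (0.66, SE 0.271, adjusted p = 0.11).

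The effect of HFD in fat was compared between KO and HET mice directly, in a comparison added after the first results. It was higher in KO mice for 10 of 25 members and lower for none (background 26.5%, with 12.2% higher). Sc5d had the largest difference of effects (1.68, SE 0.345, adjusted p = 0.00064), followed by Insig1 (1.60), Lss (1.34), Pmvk (1.27), Nsdhl (1.18), Aacs (1.11), Hmgcs1 (1.10), Dhcr7 (1.06), Mvk (1.02) and Hsd17b7 (0.88). Without the 2 acute-phase mice 2 were called, Sc5d at 1.23 (adjusted p = 0.032) and Lss at 1.06 (adjusted p = 0.043). The difference of the KO effect against WT between HFD and chow was called for Lss alone (1.07, SE 0.312, adjusted p = 0.032, background 6.33%, with 1.67% higher), and for 0 members without the 2 acute-phase mice or without the libraries with epididymis or liver RNA.

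On HFD no member was called in fat for KO or HET against WT, and KO against HET was not tested there. KO against WT gave 0 called members (background 0.0344%), 1 with an unadjusted p under 0.05 and 0 in DESeq2, and HET against WT gave 0 (background 0.00688%), 2 with an unadjusted p under 0.05 and 0 in DESeq2. Insig2 came nearest in KO against WT at -0.52 (SE 0.195, adjusted p = 0.33), with HFD WT replicate 6, the library with hepatocyte markers, at 254 CPM against a WT median of 65.8 CPM. Over the 24 diet and genotype comparisons that were not added later, 19 of the 27 genes were called at least once, 9 of them in liver and 15 in fat, and 8 were called in none. The share of all genes called at least once was not counted, and KO HFD against chow in fat alone called 35.5% of them. The count of 19 is therefore not set against a background. The 3 added comparisons also called Sc5d in liver and Insig2 in fat.

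**Figure D5:**
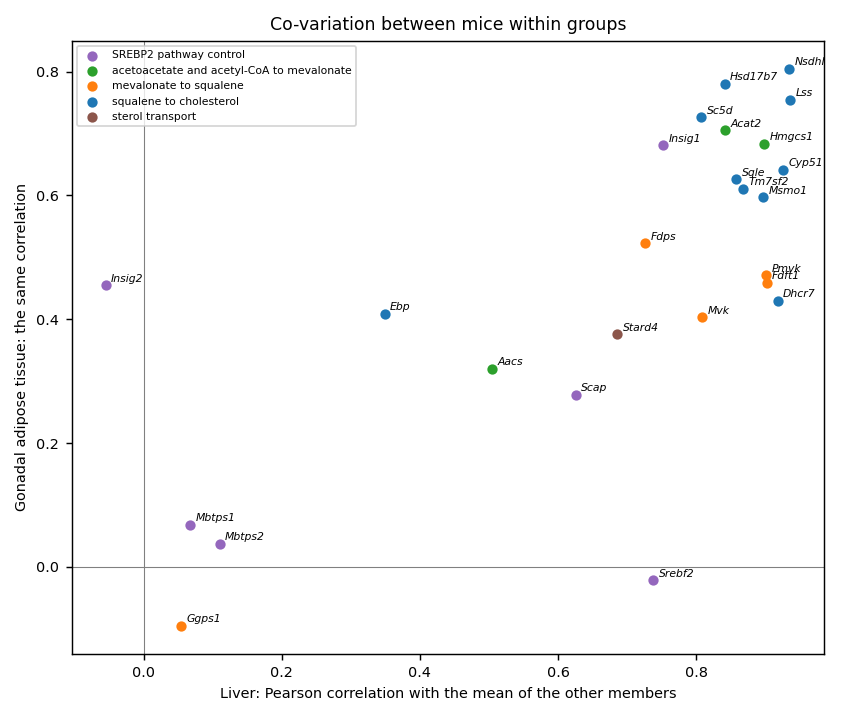
Pearson correlation of each gene with the mean of the other members across libraries, after subtracting group means, in liver (horizontal, 75 libraries) and gonadal adipose tissue (vertical, 45 libraries), coloured by pathway step. Srebf2 has 0.738 in liver and -0.022 in fat.

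Mice of one group differed from each other along the pathway. After each group's mean was subtracted, the log2 CPM of Lss followed the mean of the other members with a Pearson correlation of 0.936 in liver (75 libraries) and 0.755 in fat (45 libraries). Nsdhl had 0.934 and 0.805, Cyp51 0.926 and 0.641, and Dhcr7 0.918 and 0.430. These correlations are descriptions, since the libraries share depth and RNA quality with all genes, and 0.722% of all genes in liver and 2.49% in fat were above 0.5. In fat, markers of other cells ran against the mean of the members within groups, with median correlations of -0.419 for macrophage, -0.421 for lymphocyte and -0.32 for fibroblast markers and 0.216 for adipocyte markers, and their part was not tested. Of the 10 genes from squalene to cholesterol, 9 were above 0.5 in liver and 8 in fat. Pairs of members had a median correlation of 0.568 in liver, with 277 of 325 pairs positive, and of 0.242 in fat, with 226 of 300 positive.

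The control genes varied in this respect. Srebf2 had 0.738 in liver and -0.022 in fat, and Insig1 0.752 and 0.681. Insig2 had -0.0547 in liver and 0.455 in fat. The proteases Mbtps1 (0.0671 and 0.0678) and Mbtps2 (0.11 and 0.037) and the branch enzyme Ggps1 (0.0542 and -0.095) had low correlations in both tissues. The liver correlations include the Alios KO library of 42692 counts and were not computed without it. Within groups the SD of log2 CPM was 0.55 for Mbtps2 and 0.557 for Ggps1 in liver, against 0.229 and 0.111 in fat. The part of that library in the low liver correlations was not tested. Among genes of related pathways, chosen after their values were seen, Acss2, the acetyl-CoA synthetase gene, had 0.893 in liver and 0.705 in fat, the fatty acid elongase gene Elovl6 had 0.82 in fat, and the sterol exporter gene Abcg5 had -0.539 in liver.

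Related pathways were counted from lists by role. In HET livers on HFD, where 6.97% of all genes were called higher and 7.26% lower, 6 of 8 tested bile acid synthesis genes fell and none rose, among them Cyp7a1, the rate-limiting enzyme of bile acid synthesis (-1.73, SE 0.353, adjusted p = 0.00077), and Baat, which joins bile acids to amino acids (-0.40, SE 0.0754, adjusted p = 0.00033). Of 15 fatty acid synthesis genes 4 rose and 6 fell, with Fads2, a desaturase gene, at 1.26 (SE 0.201), Mlxipl, the gene of the carbohydrate-responsive factor ChREBP, at -0.87 (SE 0.137) and Acss2 at -1.31 (SE 0.301). Of 9 LXR target and sterol efflux genes 2 rose, Mylip, which marks lipoprotein receptors for breakdown (1.02, SE 0.145), and the HDL receptor gene Scarb1 (0.44, SE 0.132). Of 11 other sterol sensing genes tested 3 rose and 1 fell. In KO livers on HFD 0 bile acid synthesis genes were called, and 5 of 15 fatty acid synthesis genes rose and 1 fell, where 4.51% of all genes were called higher.

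In HET fat on HFD 8 of 15 fatty acid synthesis genes fell and none rose, against 18.8% of all genes called lower, with Thrsp at -2.28 (SE 0.369), Acaca, the acetyl-CoA carboxylase gene, at -1.90 (SE 0.219) and Fasn, the fatty acid synthase gene, at -1.81 (SE 0.311). In KO fat 3 of the 15 rose and none fell, a share near the 15% of all genes called higher, with Me1, the malic enzyme gene, at 1.47 (SE 0.356), Acss2 at 1.39 (SE 0.361) and Fasn at 1.13 (SE 0.392). In KO against HET fat on chow, every called gene of this list was lower, led by Fasn (-2.23), Acss2 (-1.78) and Acaca (-1.25). The effect of HFD was higher in KO than in HET fat for Fasn (2.94), Acss2 (2.40) and Acaca (1.71). In liver this difference of effects was 2.31 for Elovl6, 1.78 for Acly and 1.13 for Acaca. These values include the 2 acute-phase mice. Of 9 genes of sterol storage and lysosomal release, 4 were called higher on HFD in HET fat and 3 in KO fat and none lower, against 15.6% and 15% of all genes called higher. Lipa, the lysosomal acid lipase gene, rose by 2.07 (SE 0.311) in HET and 2.21 in KO fat, Npc1, which releases cholesterol from lysosomes, by 0.95 (SE 0.149) and 0.99 (SE 0.182), and Soat1, which esterifies cholesterol, by 1.97 (SE 0.334) and 1.10 (SE 0.39). Macrophage markers summed to 3840 to 9320 CPM in HFD HET fat against 1080 to 3660 CPM in chow HET fat. In KO fat they summed to 2500 to 10500 CPM on HFD and 2630 to 14400 CPM on chow, which overlap. Their part in the values of the storage genes was not tested.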

How the data were processed

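The authors deposited a table of raw read counts per gene for each tissue, with STAR 2.5.1b, featureCounts 1.5 and the build GRCm38.p5 named in the submitters' processing notes. Libraries were stranded, poly(A)-selected and read from a single end, per the labels' protocols. Of 121 labelled samples 120 had a column, 1 unlabelled column was not used, and 36 rows without a symbol were set aside. The members, lists and comparisons were chosen with earlier results of these data known.

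Counts were tested in R 4.3.3 with edgeR 4.0.16 (TMM scaling, genes kept by filterByExpr with a minimum count of 10 and a minimum total of 15, quasi-likelihood test, Benjamini-Hochberg adjustment over all genes tested, threshold 0.05). The log2 CPM behind the members' z-scores and correlations used a prior count of 2. Each SE is the log2 difference over the root of its F value. Chow and HFD groups of a tissue shared a fit, Control and Alios groups of liver shared another, and comparisons across these diets used all 12 liver groups. The tissue comparison used the 44 mice with both tissues, scaled jointly with the mouse as a block. DESeq2 1.42.0, other scalings, no filter, a replicate block and fits of the compared groups alone were alternatives. So were fits without each replicate in turn in groups of at most 5 mice, and without the Alios KO library of 42692 counts. No HFD and no chow HET replicate was left out in turn. Fits without libraries that stood apart by marker sums were added after seeing the data. Those libraries had over 10000 CPM of epididymis or 20000 CPM of hepatocyte markers in fat, over 50000 CPM of acute-phase RNA in chow KO liver, or over 1000 CPM of muscle markers in HET liver.

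Values per library are given for Srebf2, Insig1, Insig2 and Sqle where they bear on a result, and for the called members with the smallest adjusted p-values, up to 8 in a comparison. From each other list at most 3 called genes are named in a comparison, taken in order of adjusted p. Replicate numbers did not pair the mice, since in no comparison did every same-numbered pair correlate above 0.1. The script was tested on simulated counts. Promoters are RefSeq's, and gene positions were not needed for any test.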

Additional observations from a re-analysis of the deposited data

Results flagged for a closer look

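The z-score over the members, Srebf2, Insig1, Insig2 and Sqle were examined in groups of 4 to 10 libraries, 75 sets of values. Chance marks about 1 in 20, and 6 values stood far from the rest of their group. Srebf2 was at 20.7 CPM in liver Alios KO replicate 8, the library of 42692 counts, and at 63.3 CPM in fat HFD KO replicate 3. Insig1 was at 251 CPM in liver chow HET replicate 1 and at 59.2 CPM in liver HFD KO replicate 2, whose acute-phase RNA summed to 44300 CPM. Insig2 was at 254 CPM in fat HFD WT replicate 6, which held 54400 CPM of hepatocyte markers. Sqle was at 16.8 CPM in liver chow WT replicate 4.

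The effect of HFD differed between KO and HET fat by the edgeR test of the difference itself for Sc5d (log2 1.68), Insig1 (1.60), Lss (1.34), Pmvk (1.27), Nsdhl (1.18), Aacs (1.11), Hmgcs1 (1.10), Dhcr7 (1.06), Mvk (1.02) and Hsd17b7 (0.88). In liver it differed for Insig1 (1.2) and Sc5d (0.98). The KO effect in fat differed between HFD and chow for Lss (1.07).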

How the results depend on the processing

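Over 28 comparisons, 307 of 355 alternative counts of called members stayed within 1.5 times the main count, and 41 of 82 calls were kept in every alternative run for them. Of the 24 diet and genotype comparisons not added later, 7 had a called member. Many of these counts therefore set 0 against 0. The 82 calls include 24 from the tissue comparison, where 91.9% of all genes were called. These pooled figures therefore say little about the diet and genotype calls. Without the 2 chow KO mice with high acute-phase RNA the count was 0 for KO HFD against chow in liver, for the KO minus HET effect of HFD in liver, for KO against WT and KO against HET in chow fat and for the KO effect in fat, and 2 for the KO minus HET effect in fat. The replicate block gave 0 for the KO minus HET effect in liver, 1 for KO against WT in chow fat, 0 for WT HFD against chow in fat and 0 for the KO effect in fat. It gave 6 in place of 9 for HET HFD against chow in liver. A fit of the compared groups alone gave 14 for HET HFD against chow in liver, 2 for Alios against HFD in KO liver, and 0 for KO against WT in chow fat, WT HFD against chow in fat and the KO effect in fat. DESeq2 gave 1 for KO against WT in chow liver, 1 for Alios against HFD in KO liver and 2 for the KO effect in fat. All 12 liver groups, or mouse-number run added as a covariate, gave 1 for KO against WT in chow liver, and the run gave 1 for WT HFD against chow in liver and 0 in fat. No filter gave 1 for the KO minus HET effect in liver and 0 for WT HFD against chow in fat. Without the libraries with epididymis or liver RNA the count was 0 for WT HFD against chow and for the KO effect in fat, and without the muscle-rich HET livers it was 1 for the KO minus HET effect in liver. Library totals turned Mbtps2 (-0.69), Aacs (-0.43) and Pmvk (-0.59) lower in liver than in fat. The cause of these changes was not tested.

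Chow WT and chow KO replicates were left out 1 at a time, and HFD and chow HET replicates were not. This gave 0 to 1 called members for KO against WT in chow liver and for KO HFD against chow in liver. For the KO minus HET effect in liver it gave 0 to 2. In fat it gave 0 to 9 for KO against WT on chow, 8 to 12 for KO against HET on chow, 0 to 2 for WT HFD against chow, 9 to 11 for KO HFD against chow, 0 to 7 for the KO effect and 9 to 12 for the KO minus HET effect. Few counts limit Idi1 and Fdps, and Mvd had 0 counts at every depth.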

Other observations

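Other calls in the fat of WT mice on HFD concerned sterol efflux and storage. Abcg1, a sterol efflux transporter gene, rose by 0.99 and Abca1 by 0.47 on the log2 scale (edgeR quasi-likelihood, Benjamini-Hochberg adjustment). These were 2 of 9 genes of the efflux list, against 1.6% of all genes called higher, and Npc1 rose by 0.72. In HET fat Abcg1 rose by 1.44. In WT livers on HFD the desaturase genes Fads2 (1.29) and Fads1 (0.79) rose, while Mlxipl, the gene of the carbohydrate-responsive factor ChREBP, fell by 0.72.

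Between chow KO and chow WT livers, Soat1 was higher by 1.2 (edgeR adjusted p = 0.042) and Ces1g, a carboxylesterase gene, was lower by a log2 difference of -0.98 (adjusted p = 0.039). These were 2 calls among 9 genes of sterol storage, against 3.4% of all genes called. The KO livers include the 2 acute-phase mice, and macrophage markers reached 2220 CPM in them. With 1 replicate left out in turn, 22 to 1055 of all genes were called in this comparison.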
